A study of Danio rerio with 18 samples.

Results

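The polysome shift at egg activation was measured for 13656 genes of the 27015 in the gene table, those with a normalised read count of at least 100 in the unfractionated libraries of both egg and 1-cell embryo. For each gene the polysome ratio was the log2 of the polysome-bound count over the polysome-unbound count, with 1 added to each. The shift was the ratio at 1-cell minus the ratio in egg, centred on the median over the 13656 genes. A gene was called gained by polysomes when its ratio was at least 2-fold higher at 1-cell, and lost when it was at least 2-fold lower. Of the 13656 members 12333 had a gene symbol, 601 were loci assembled by the submitters and 722 carried an Ensembl identifier alone. The rule used the unfractionated level and no shift, so the unfractionated change is given as a description. The 3 genes just inside the minimum, USP53, SMARCD3 and EEF2, had shifts of 0.999, -0.75 and 1.58. The 3 just outside, NECAB2, XLOC_000701 and znf1065, had -0.97, -1.90 and 0.12.

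The series followed RNA on and off polysomes through early zebrafish development at 6 stages, with 3 libraries each (polysome-bound, polysome-unbound and unfractionated). The values below rest on the 6 libraries of egg and 1-cell, and the libraries of the 16-cell and 128-cell stages are set beside them. All were made from wild-type AB material described as whole embryo, with no mutation, transgene or treatment named in the labels. Libraries were strand-specific and made after depletion of ribosomal RNA. Each condition was sequenced as 1 library, so values carry no replicate error and no test was made. The labels do not say how many eggs or embryos, or from how many clutches, went into a library. Errors given as SE cover read counting only, and the spread between clutches or fractionations was not measured.

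A ribosome-laden mRNA sediments with polysomes in a sucrose gradient, and an mRNA with no ribosome stays in the lighter fractions. The mature egg is arrested in meiosis and transcriptionally silent, and its activation by a calcium wave releases the arrest, triggers cortical granule exocytosis and starts development on maternal mRNA and protein. Because the zebrafish genome stays largely silent through the first cleavages, the protein made in this window depends on which stored mRNAs are loaded onto ribosomes.

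The 6 libraries held between 35.8 M and 63.9 M estimated reads. The 54 oocyte genes in the table, 41 of them members, summed to 364814 normalised counts in unfractionated egg RNA and 321681 at 1-cell. The 20 liver markers and 11 muscle markers had no member above the minimum, with sums of 392 and 207 in egg and 382 and 151 at 1-cell. The 9 blood markers summed to 376 in egg and 379 at 1-cell in unfractionated RNA, to 239 and 469 in the bound fraction and to 457 and 175 in the unbound. Their 1 member, epb41b, had a shift of 4.86 and fewer than 50 counts in some fraction library. The 22 sperm markers had 5 members and summed to 3368 in egg and 3517 at 1-cell. Of 17 follicle markers 4 were members (CYP11A1, CYP17A1, hsd3b2 and DMRT1), and the list summed to 14676 in egg and 15570 at 1-cell. No marker was at 0 in all 6 libraries. The part of these cell types in the results was not tested.

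Relative to the median gene, polysome association of most maternal mRNAs was nearly the same in the egg and in the 1-cell embryo. The interquartile range of the shift ran from -0.32 to 0.32 on the log2 scale. Across the members the ratio in egg and the ratio at 1-cell had a Spearman rho of 0.861, a description over genes of libraries that share their processing. A total of 620 genes were gained (4.54% of the members) and 641 were lost (4.69%), together 1261 genes (9.23%). In unfractionated RNA 418 genes were at least 2-fold higher at 1-cell (3.06%) and 316 at least 2-fold lower (2.31%).

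The next step of development was wider. From 1-cell to 16-cell, on the same 13656 genes, 1579 were gained (11.6%) and 1807 lost (13.2%), and the interquartile range of the shift was 1.11, against 0.64 from egg to 1-cell. From 16-cell to 128-cell 733 were gained (5.37%) and 1018 lost (7.45%), with an interquartile range of 0.80. The unfractionated change had interquartile ranges of 0.50, 0.52 and 0.56 over the 3 steps. Its share past 2-fold was 5.37%, 8.36% and 7.1%. The minimum of 100 was set on the egg and 1-cell unfractionated levels, which limits the change of rare genes at the first step. There the share was 3.26% in the bin of 100 to 200 and 11.4% in the bin of 200 to 500. The unfractionated values of the 3 steps are therefore not like for like. The first and the second step share the 1-cell libraries.

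**Figure D1:**
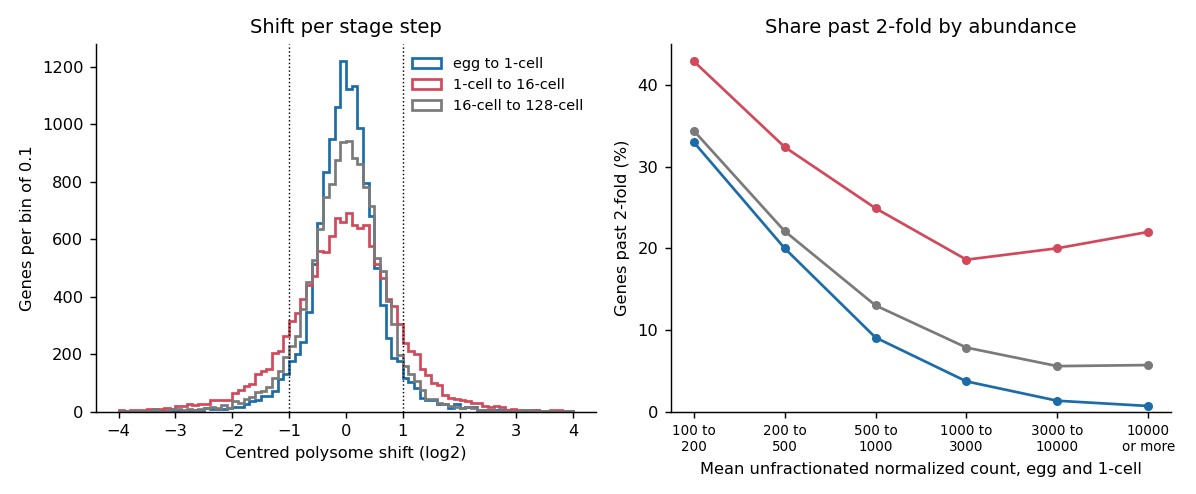
Left, number of genes per bin of 0.1 against the centred polysome shift (log2) for 3 stage steps over the same 13656 genes, with dotted lines at 2-fold. Right, percent of genes past 2-fold against the mean unfractionated normalised count of egg and 1-cell (6 bins). The egg to 1-cell distribution is the narrowest, and its share past 2-fold goes from 33% in the least abundant bin to 0.688% in the most abundant.

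Most of the calls lay among rare mRNAs. In the bin with a mean unfractionated count of 100 to 200, 33% of 1259 genes were past 2-fold, with a median counting SE of 0.29. In the bin of 1000 to 3000 the share was 3.7% of 3622 genes, with a median SE of 0.08, and at 10000 or more it was 0.688% of 1017 genes, 1 gained and 6 lost. From 1-cell to 16-cell the share in that most abundant bin was 22%. A total of 541 genes had a 95% counting interval wholly past 2-fold. Of the 13656 members 335 had fewer than 50 normalised counts in some fraction library, and they held 112 of the gained and 95 of the lost genes. Among the 13321 others 508 were gained (3.81%) and 546 lost (4.1%). Among the 6537 genes with at least 1000 in all 4 fraction libraries 34 were gained (0.52%) and 72 lost (1.1%).

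The shortest transcripts had the largest share past 2-fold. Transcript length was known for 5235 members joined to 1 transcript, split into 5 bins of near-equal size. In the shortest bin, 108 to 1106 nucleotides, 14.2% were past 2-fold, against 7.35% in the middle bin (1675 to 2345 nucleotides) and 4.78% in the next (2346 to 3561 nucleotides). The longest bin, 3566 to 29476 nucleotides, had 7.16%. The median egg abundance was 616 normalised counts in the shortest bin, against 1324 and 1974 in the middle bin and the next, and its part in the difference was not tested. The median shift of the 5 bins lay between -0.07 and 0.08.

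Over all calls, most of them in rare mRNAs, the unbound count moved more often than the bound count. The unbound change was also the wider over all 13656 members, with an interquartile range of 0.56 against 0.50 for the bound change. The share of all members in which the unbound count moved more was not counted. In the 641 lost genes the median unbound change was 1.07 on the log2 scale and the median bound change -0.30. The unbound count moved more than the bound count in 476 of them. In the 620 gained genes the median unbound change was -1.01 and the median bound change 0.36, and the unbound count moved more in 431. The genes with at least 1000 in all 4 fraction libraries differed from this in the gained direction. The 34 gained had a median bound change of 0.60 and a median unbound change of -0.57, and the bound count moved more in 18. The 72 lost had -0.45 and 0.78, and the unbound count moved more in 46. The median unfractionated change was -0.03 for the 620 gained and -0.0024 for the 641 lost genes. Of the gained genes 540 were within 2-fold in unfractionated RNA, 31 were higher and 49 lower, and of the lost genes 573 were within 2-fold, 44 higher and 24 lower. Past 2-fold in unfractionated RNA were thus 12.9% of the gained and 10.6% of the lost genes, against 4.73% of the genes with neither call. The part of abundance in this difference was not tested. Over all members the shift and the unfractionated change had a rho of 0.015.

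**Figure D2:**
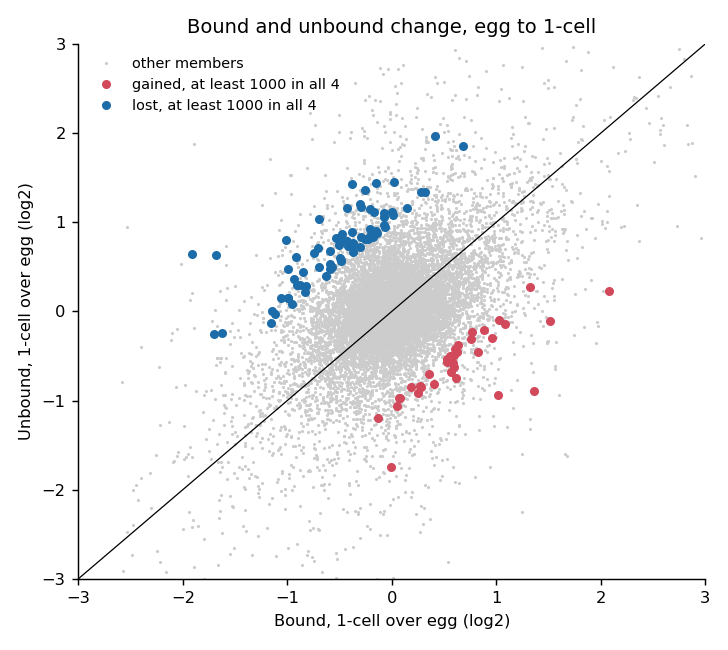
Change in the polysome-unbound count against change in the polysome-bound count, 1-cell over egg (log2), 1 grey point per member. Red points are the 34 gained and blue points the 72 lost genes with at least 1000 normalised counts in all 4 fraction libraries, and the diagonal marks equal change in both fractions.

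At later stages many gained genes had ratios nearer their egg value than their 1-cell value. The median centred ratio of the 620 gained genes was -0.86 in egg, 0.65 at 1-cell, -0.27 at 16-cell and -0.40 at 128-cell. Both later stages lay on the egg side of the midpoint in 324 of them (52.3%) and on the 1-cell side in 148 (23.9%). The 641 lost genes had a median centred ratio of 1.1 in egg, -0.41 at 1-cell, 0.33 at 16-cell and 0.15 at 128-cell. Of these, 278 stayed on the 1-cell side at both later stages (43.4%) and 190 lay on the egg side (29.6%). Among the abundant genes the order was the same for the gained and reversed for the lost. Of the 34 abundant gained genes 17 lay on the egg side (50%) and 13 on the 1-cell side (38.2%), and of the 72 abundant lost genes 35 lay on the egg side (48.6%) and 26 on the 1-cell side (36.1%). The median centred ratio of these 72 was 1.36 in egg, 0.16 at 1-cell, 1.05 at 16-cell and 1.1 at 128-cell. That of the 34 was -0.86 in egg, 0.45 at 1-cell, -0.36 at 16-cell and -0.0001 at 128-cell. Both sets were chosen on their egg and 1-cell values, and only the 16-cell and 128-cell values are independent of that choice. The midpoint comes from the egg and 1-cell values, so the counts on each side are not independent of it.

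The gained and lost calls are relative to the median gene. The transcript files hold 4 control-like entries that were abundant in the fraction libraries and nearly absent from the unfractionated ones. Measured against these entries the median member had a shift of -0.80 on the log2 scale, and 133 genes were gained and 4587 lost. When and in what amount the entries were added is not stated in the labels, and whether overall polysome loading differed between egg and 1-cell was not tested.

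The regulators of meiotic arrest and egg activation lay mostly within 2-fold, as did most members. Of 46 measured regulators 2 were lost and none gained, beside 4.69% and 4.54% of all members. Of the 46, 35 had a shift below 0 and 11 above, and the median was -0.21. The median over all members is 0 by construction, and of the 37 gene lists given below 26 had a median below 0 and 11 above. For CCNB1, the cyclin B that drives meiotic and mitotic M phase, the bound count was 145812 in egg and 152087 at 1-cell and the unbound count 9867 in egg and 13163 at 1-cell, a shift of -0.34 ± 0.022 (SE). For CDC20, the activator of the anaphase-promoting complex that destroys cyclin B, the bound count was 83921 in egg and 80547 at 1-cell and the unbound count 8345 in egg and 8095 at 1-cell, a shift of -0.0029. CCNB1 had a ratio of 3.89 in egg and 3.53 at 1-cell on the deposited scale, where each library is normalised on its own, so that a ratio ranks genes and does not give a share of the mRNA.

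The mRNA of the inhibitor that holds the arrest had a lower polysome ratio at 1-cell. For fbxo43, which encodes Emi2, the inhibitor of the anaphase-promoting complex whose destruction releases metaphase II, the bound count was 38441 in egg and 27203 at 1-cell and the unbound count 1272 in egg and 1585 at 1-cell. Its unfractionated count was 2988 in egg and 4963 at 1-cell. The shift was -0.80 ± 0.061, and its ratio continued down over 4.92, 4.10, 3.15 and 2.42 at the 4 stages from egg to 128-cell. Its relative fbxo5 (Emi1), an inhibitor of the same complex in the mitotic cycle and not among the 46 regulators, went the other way. The bound count of fbxo5 was 5938 in egg and 8572 at 1-cell and the unbound count 22180.2 in egg and 14946 at 1-cell, a shift of 1.11 ± 0.033, with an unfractionated count of 22178 in egg and 17243 at 1-cell.

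The kinases of the arrest pathway named here lay within 2-fold. MOS, the kinase that starts the MAP kinase cascade of the arrest, had a bound count of 7965 in egg and 6311 at 1-cell and an unbound count of 6332 in egg and 5888 at 1-cell, a shift of -0.22 ± 0.04. Its targets downstream gave -0.041 for MAP2K1, -0.34 for MAPK3 and 0.60 for RPS6KA1. WEE2, which keeps Cdk1 inhibited, had a shift of -0.29, while pkmyt1, a membrane-bound inhibitor of Cdk1, had 0.80 ± 0.081, with bound counts of 926 in egg and 1436 at 1-cell. The pkmyt1 ratio was -1.72, -0.93, -1.60 and -2.02 from egg to 128-cell, higher at 1-cell than at the other 3 stages.

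Among the measured regulators, the genes of the calcium signal also lay within 2-fold, with 1 exception. The list does not hold every gene of calcium signalling. PLCG1, a phospholipase that makes the calcium-releasing messenger, had a shift of -0.28, and the receptors for that messenger, ITPR2 and ITPR3, had -0.44 and -0.086. The calmodulin genes calm1a, calm2a, calm3a and calm3b had -0.26, -0.37, 0.048 and -0.19. Calmodulin genes encode near-identical proteins, and reads shared between them could not be resolved here. The exception was camk2d2, a calcium/calmodulin-dependent kinase, with a shift of -1.18 ± 0.24. It rests on low counts, 194 in egg and 85.3 at 1-cell bound and 291 in egg and 294 at 1-cell unbound.

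YBX1 was the other regulator that was lost. It encodes an RNA-binding protein of stored messenger particles that represses translation of maternal mRNA in zebrafish. Its bound count was 16923 in egg and 11216 at 1-cell and its unbound count 5940.1 in egg and 8604 at 1-cell, a shift of -1.12 ± 0.033, while its unfractionated count was higher at 1-cell (4564 in egg and 7981 at 1-cell). At 16-cell its ratio was 1.44, close to the 1.51 of egg, against 0.38 at 1-cell.

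From 1-cell to 16-cell 9 of the 46 regulators were lost and 3 gained, beside 13.2% and 11.6% of all members. ZAR1L, an oocyte RNA-binding protein, had a ratio of 3.05 in egg and 2.56 at 1-cell, then -1.97 at 16-cell. BTG4, an adaptor that brings the deadenylase to maternal mRNA, had -0.30, 0.02 and -2.19 at the same stages. For ca15b the ratios were 0.02, -0.15 and -2.40. The ratios of birc5b (a Survivin of the chromosomal passenger complex) were 1.9, 1.61 and -0.63, those of SASS6 (a centriole assembly protein) 2.2, 2.01 and -0.14, and those of MOS 0.33, 0.10 and -2.40. The other 3 of the 9 were plk1, bmb and calm3a. None of the 9 was past 2-fold from egg to 1-cell. The germ plasm organiser buc had a shift of 0.52 ± 0.021 at activation, with bound counts of 13300.2 in egg and 18903 at 1-cell and unbound counts of 56926 in egg and 56918 at 1-cell.

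**Figure D3:**
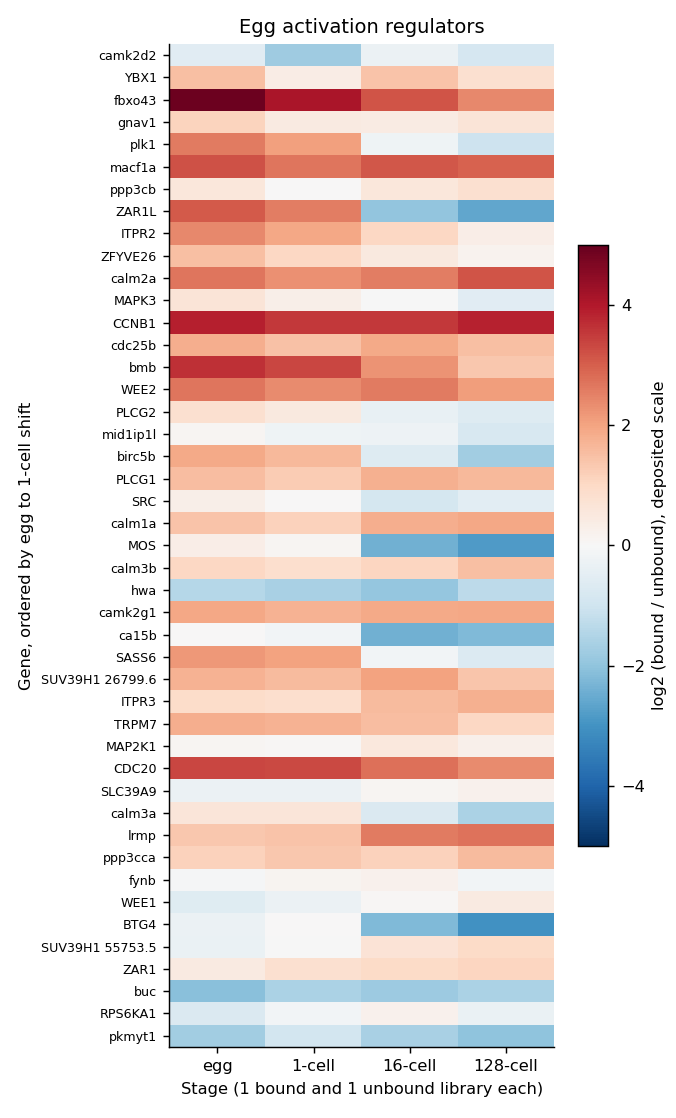
Polysome ratio, log2 of bound over unbound on the deposited scale, of 45 of the 46 egg activation regulators at egg, 1-cell, 16-cell and 128-cell, with genes ordered by their egg to 1-cell shift. The egg and 1-cell columns are close in colour for most genes, whereas ZAR1L, MOS, ca15b, SASS6, birc5b and BTG4 are bluer at 16-cell and 128-cell. SUV39H1 is the symbol of 2 identifiers, told apart by the end of the identifier.

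The abundant genes past 2-fold were named after their values were seen, and 93 of the 106 had a symbol. Their counts are high enough for a small counting SE, but they still rest on 1 library per fraction. The gene with the greatest abundant loss that had a symbol was TOMM70, the import receptor of the outer mitochondrial membrane. Its bound count was 11600.3 in egg and 5735 at 1-cell and its unbound count 4850.5 in egg and 8457 at 1-cell, a shift of -1.81 ± 0.038, with an unfractionated count of 6247 in egg and 8441 at 1-cell. TRIP12, a ubiquitin ligase, had bound counts of 38659.7 in egg and 29773 at 1-cell and unbound counts of 5011 in egg and 13446 at 1-cell, a shift of -1.79 ± 0.029. In both genes the bound count was lower and the unbound count higher at 1-cell.

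For HMGB2, a chromatin architectural protein, the bound count was 85978 in egg and 69438 at 1-cell and the unbound count 2214 in egg and 5095 at 1-cell, a shift of -1.50 ± 0.041. The unbound count moved more than the bound count. ELAVL2, an RNA-binding protein that stabilises mRNA, had a shift of -1.29 ± 0.072, with bound counts of 4085 in egg and 2135 at 1-cell. The splicing factor SRSF6 and the spliceosomal helicase DDX46 had -1.04 and -1.04. MKNK2, a kinase that phosphorylates the cap-binding protein eIF4E, had -1.38 ± 0.068, and here the unfractionated count was lower too (3536 in egg and 1619.8 at 1-cell).

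The germ plasm genes past 2-fold went both ways. TDRD6, a Tudor-domain protein of germ granules, had nearly equal bound counts (28075 in egg and 26639 at 1-cell) and unbound counts of 11012 in egg and 22943 at 1-cell, a shift of -1.12 ± 0.023. For tdrd7a, a second Tudor-domain protein, the bound count was 13008 in egg and 6729.6 at 1-cell and the unbound count 5186 in egg and 5472 at 1-cell, a shift of -1.02. PIWIL2, a Piwi protein that carries piRNAs, was gained with a shift of 1.13 ± 0.061, and its unbound count was 4946 in egg and 2755 at 1-cell. Of 24 measured germ plasm genes these were the 3 past 2-fold, and the list median was -0.12. The 1 gained and 2 lost stand beside 4.54% and 4.69% of all members.

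Of the 72 abundant lost genes ctss2.1, a cathepsin S of the lysosome, had the highest bound count in egg. Its bound count was 111462 in egg and 55814 at 1-cell, its unbound count 20162 in egg and 22363 at 1-cell and its unfractionated count 50838 in egg and 29603 at 1-cell, a shift of -1.13 ± 0.017. The bound and the unfractionated count were lower at 1-cell, and the unbound count was little different. Its relative CTSB had bound counts of 75247 in egg and 92919.5 at 1-cell and a shift of 0.59 in the other direction.

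Among the 34 abundant gained genes was RRS1, a factor that matures the large ribosomal subunit, with bound counts of 2353 in egg and 9955 at 1-cell, unbound counts of 4877 in egg and 5720.0 at 1-cell and unfractionated counts of 4449 in egg and 6380.2 at 1-cell. Its shift was 1.86 ± 0.05. RSL24D1, a placeholder protein of the nascent large subunit, had bound counts of 2547 in egg and 5403 at 1-cell and a shift of 1.24 ± 0.05. WDR3, of the small subunit processome, had 1.24 ± 0.058, and RPP38, of the RNase P and MRP particles, had 1.13 ± 0.053. These 4 genes were picked after their values were seen, and no list of genes with such roles was counted. Another factor of large subunit assembly, bxdc2, went the other way and was lost with a shift of -1.05.

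Of 41 measured genes of the endoplasmic reticulum translocation and coat list 2 were gained and 1 lost, beside 4.54% and 4.69% of all members, and the median was 0.03. SSR4, a subunit of the translocon-associated complex of the endoplasmic reticulum, had bound counts of 1808 in egg and 5182 at 1-cell and unbound counts of 1663 in egg and 1538 at 1-cell, a shift of 1.64 ± 0.072. SRP9, of the signal recognition particle, had bound counts of 1935 in egg and 4852 at 1-cell and a shift of 1.07 ± 0.075. SEC61G, a subunit of the translocation channel, was lost with -1.09 ± 0.077. The abundant gene with the largest gain was fmo5, a flavin monooxygenase, with bound counts of 1199 in egg and 3072 at 1-cell, unbound counts of 4332 in egg and 2339 at 1-cell and a shift of 2.26 ± 0.07. EIF4H, a helper of the eIF4A helicase, kept its bound count (7158 in egg and 7541 at 1-cell) while its unbound count was 2140.2 in egg and 1093 at 1-cell, a shift of 1.06 ± 0.065.

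Gene lists moved little as groups. Of 37 lists the medians lay between -0.52 and 0.17, with 26 below 0 and 11 above, and 7 exceeded 0.2 in size. Counts of list members past 2-fold from egg to 1-cell stand beside the 4.54% gained and 4.69% lost of all members. These shares are not matched for abundance, and the part of abundance in the list counts was not tested.

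The lowest median was that of mRNAs encoded in the mitochondrial genome, which mitochondrial ribosomes translate inside the organelle. All 13 were members, none was past 2-fold (without centring mt-atp8 was, at -1.01), 11 had a shift below 0 and the median was -0.52. MT-ND6, a subunit of complex I, had bound counts of 57590.0 in egg and 37004 at 1-cell, unbound counts of 56330.1 in egg and 67866 at 1-cell and a shift of -0.89 ± 0.014. The others with the largest shifts were mt-atp8 (-0.998) and MT-ND2 (-0.86). The bound and unfractionated levels were lower at 1-cell, with median changes of -0.74 and -0.45, against -0.16 in the unbound fraction. MT-CO2 and MT-CO3 were the 2 above 0.

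Cytosolic ribosomal proteins had a median shift of -0.28, with 68 of 80 measured genes below 0, 3 lost and 1 gained. Their unfractionated level was higher at 1-cell (median change 0.32), as was the unbound level (0.21), while the bound level had a median change of -0.03. RPS10 and RPS23 of the small subunit were lost, with shifts of -1.55 ± 0.13 and -1.45 ± 0.17. Their ratio on the deposited scale was low at both stages, with a median of -1.18 in egg and -1.55 at 1-cell.

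Histones had a median shift of -0.25 over 19 members, with 16 below 0 and none past 2-fold. Their unfractionated level was higher at 1-cell by a median of 0.59. The fractions did not show a rise of that size, with median changes of -0.18 in the bound and 0.13 in the unbound. The cause of this difference was not tested. From 1-cell to 16-cell 10 of the 19 were gained and 1 lost, beside 11.6% and 13.2% of all members at that step, with a median shift of 1.02. Histone genes lie in near-identical copies, and the split of reads between copies could not be checked.

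Nuclear pore and transport factors had a median of -0.21, with 44 of 55 below 0 and 2 lost, the importins IPO13 (-1.08 ± 0.065) and TNPO2 (-1.03 ± 0.074). Splicing factors had -0.24, with 51 of 74 below 0 and 2 lost, SRSF5 (-1.25 ± 0.068) and SRSF6. From 1-cell to 16-cell 14 of the 74 splicing factors were gained and 2 lost, beside 11.6% and 13.2% of all members at that step, with a median of 0.52. The 11 HMG proteins had -0.38, with 8 below 0 and 3 above. HMGB2 and hmgn1b were lost, while HMGN2 had a shift of 0.88.

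Oocyte genes had the highest list median, 0.17, with 2 of 41 gained and 2 lost. The egg coat gene zp2.5 was lost, with bound counts of 971 in egg and 1005 at 1-cell, unbound counts of 440.2 in egg and 2406 at 1-cell and a shift of -2.39 ± 0.11. Zona pellucida genes also lie in similar copies. MSH4, a meiotic crossover factor, was gained (2.2 ± 0.26). The aminoacyl-tRNA synthetases, which charge tRNAs, had 16 of 19 shifts above 0 and none past 2-fold. The largest of these was GARS1, with bound counts of 3749 in egg and 4631 at 1-cell, unbound counts of 11789.5 in egg and 9699 at 1-cell and a shift of 0.60 ± 0.042. Mitochondrial ribosomal proteins had a median of 0.12, with 2 of 71 gained and 3 lost, and zinc finger znf genes had 15 of 152 gained and 7 lost.

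Genes of embryonic signalling lay mostly within 2-fold. Of 9 measured BMP, Nodal and FGF ligands and receptors none was past 2-fold, and the median was -0.06. For gdf3, the maternal Vg1 ligand that works with Nodal in mesendoderm induction, the bound count was 10191 in egg and 28757 at 1-cell, the unbound count 4304 in egg and 7487 at 1-cell and the unfractionated count 6825 in egg and 12655 at 1-cell, so all 3 were higher at 1-cell. Its shift was 0.71 ± 0.036. BMP4, a ventralising ligand, had bound counts of 302 in egg and 651 at 1-cell and a shift of 0.76 ± 0.14. In the Wnt list 1 of 21 was gained, the casein kinase csnk1e (1.63 ± 0.23), whose bound count was 167 in egg and 171 at 1-cell and unbound count 508 in egg and 169 at 1-cell.

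Translation factors and the decay machinery stayed near the median. Of 63 initiation factors 1 was gained (EIF4H) and none lost, with a median of 0.01. Of 17 elongation and termination factors 1 was gained and none lost, with a median of 0.08. The cap-binding gene eif4eb had a shift of -0.93 ± 0.088 with bound counts of 1485 in egg and 689 at 1-cell, and EIF3H, a subunit of the eIF3 complex, had -0.89 ± 0.071. Of 63 genes of deadenylation and mRNA decay none was past 2-fold, and the median was -0.03. Of 26 genes of vesicle and cortical granule exocytosis, 33 kinesins, 37 E2 ubiquitin-conjugating enzymes and 26 maternal transcription factors none was past 2-fold. The exocytosis list does not hold every gene of vesicle traffic. Outside it EXOC1 (-1.51), RAB3A (-1.18) and SYT3 (-1.01) were lost and VPS45 (1.04) was gained. Among the kinesins the largest shift was that of kif5c, with 0.83 ± 0.14, followed by KIF1C with 0.81 ± 0.038, for which the bound count was 5376 in egg and 9040.2 at 1-cell. Of 47 proteasome subunits 2 were gained and 1 lost, and of 67 cell cycle genes 1 was gained and 2 lost.

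**Figure D4:**
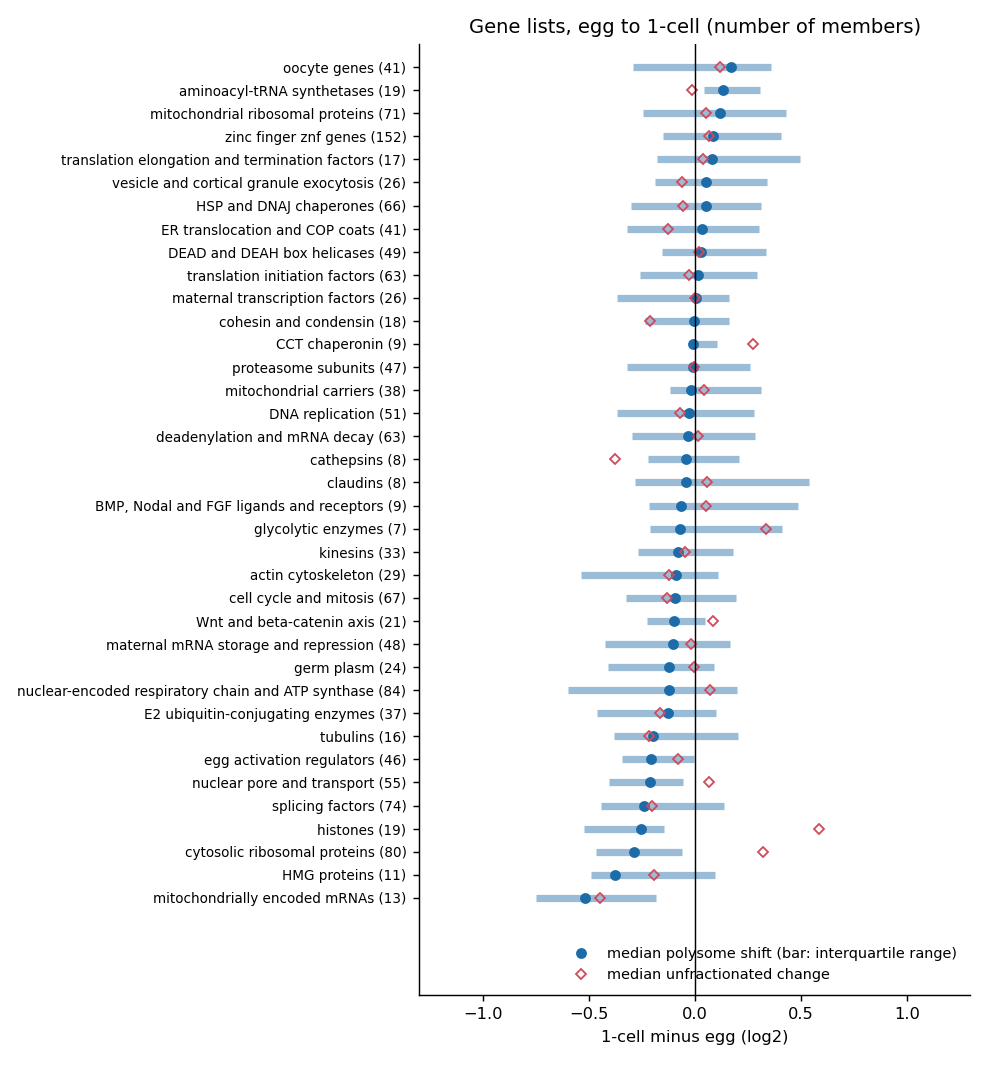
Median polysome shift (blue point) with interquartile range (bar) and median unfractionated change (open red diamond) of 37 gene lists, 1-cell minus egg (log2), with the number of members in brackets. Mitochondrially encoded mRNAs lie lowest at -0.52 and oocyte genes highest at 0.17, and histones and ribosomal proteins have unfractionated changes of 0.59 and 0.32 beside shifts below 0.

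Among genes with a symbol and at least 50 normalised counts in all 4 fraction libraries, the largest shifts were mostly in rare mRNAs. The greatest gain was in SULF2, an enzyme that trims sulphate from heparan sulphate, with bound counts of 167 in egg and 397 at 1-cell, unbound counts of 713 in egg and 149 at 1-cell and a shift of 3.51 ± 0.21. PTBP2, a splicing repressor, had nearly equal bound counts (957 in egg and 992 at 1-cell) and unbound counts of 969 in egg and 110.1 at 1-cell, a shift of 3.19 ± 0.18. The protocadherin PCDH15 had 2.67 ± 0.13, with bound counts of 818 in egg and 1422 at 1-cell. In all 3 the unbound count was lower at 1-cell, for PCDH15 1113 in egg and 306 at 1-cell.

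The greatest loss was in FRMPD3, a scaffold protein with FERM and PDZ domains, with a shift of -4.14 ± 0.19. Its unbound count was 107 in egg and 3490.5 at 1-cell, its bound count 401 in egg and 729 at 1-cell and its unfractionated count 222 in egg and 1176 at 1-cell, so all 3 were higher at 1-cell. The tapasin gene tapbp.1 had bound counts of 2327 in egg and 625 at 1-cell and unbound counts of 71.7 in egg and 265 at 1-cell, a shift of -3.76 ± 0.22. BABAM2, a subunit of a BRCA1-associated deubiquitinase complex, was the most abundant of the 15 genes with the largest loss. Its bound count was 6603 in egg and 3968 at 1-cell and its unbound count 268 in egg and 1143 at 1-cell, a shift of -2.81 ± 0.11, with a near-constant unfractionated count (1369.8 in egg and 1169.9 at 1-cell). EWSR1, an RNA-binding protein, kept its bound count (1175 in egg and 1267 at 1-cell) while its unbound count was 94.1 in egg and 642 at 1-cell, a shift of -2.64 ± 0.19. The other genes among the 15 in each direction had shifts of 2.27 to 2.86 when gained and of -3.46 to -2.43 when lost.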

How the data were processed

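Polysome-bound, polysome-unbound and unfractionated RNA of egg and 1-cell was sequenced in 1 library each. Per the submitters' processing notes, DESeq2, Salmon 0.6.0, Cufflinks 2.2.1, STAR 2.4.2a, GSNAP, bcl2fastq 2.16.10 and cutadapt 1.9.1 were used with genome build GRCz10. Their roles are not given in the sources used here. The gene table deposited by the authors holds a normalised count signal, read as counts divided by 1 factor per library. The transcript files deposited by the authors hold estimated counts and no map to genes, and were used for depth, control-like entries and transcript length. The counting SE was computed from the gene table, with the value of 1 read per library inferred from its frequent low values. Genes were joined to a transcript where both had the same reads in every library, within 0.01 on the natural log scale. The deposited TPM was not used.

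Shifts were computed in Python 3.11.15 (numpy 2.4.6, pandas 2.3.3) on log2 of the normalised count plus 1 and centred on the members' median. The script was tested on simulated data. With 1 library per condition no p-value was computed. The genes named were the 15 highest and 15 lowest shifts among those with a symbol and at least 50 normalised counts in all 4 fraction libraries, up to 3 members of each list, and the measured regulators of egg activation, of which 1 is counted but not reported here. Genes with at least 1000 in all 4 were named after their values were seen. The members and the lists were chosen with earlier results of these data known. Gene symbols came from a name table that matched 22547 of 27015 identifiers. Alternatives were pseudocounts, minimum counts, centring, scaling and transcript counts.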

Additional observations from a re-analysis of the deposited data

Results flagged for a closer look

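Signal outside the gene table came from 4 control-like entries in the transcript files. Together they took 1.02% of the estimated reads of the egg polysome-bound library and 0.52% of the egg unbound library. At 1-cell they took 1.97% of the bound and 0.557% of the unbound library. The unfractionated libraries held 26 such reads in egg and 15 at 1-cell. On the deposited scale the bound over unbound ratio of the entries was higher at 1-cell by 0.79 on the log2 scale when summed, and by 0.75 to 1.12 for single entries.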

How the results depend on the processing

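Gained and lost counts were 620 and 641. They stayed within 1.5 times of these values with a pseudocount of 10 or 0.1, with at least 50 normalised counts in all 4 fraction libraries and without centring. With library sums they were 708 and 555. Lowering the minimum to 50 in both unfractionated libraries gave 1091 and 1029, and raising it to 500 gave 126 and 171, with 227 genes changed in unfractionated RNA in place of 734. Requiring the 95% counting interval to lie past 2-fold gave 261 and 280. Keeping only members with an unfractionated change under 1.5-fold gave 413 gained and 460 lost among fewer genes. At least 1000 in all 4 fraction libraries, chosen after seeing the data, gave 39 and 64 when centred anew. Scaling to the control-like entries gave 133 gained and 4587 lost. Transcript estimated counts, with 18915 transcripts passing the rule, gave 2042 and 1884, and the cause was not tested. Of the 277 named genes none changed sign or moved beyond its 95% counting interval under a pseudocount of 10 or without centring. The median shift before centring was -0.013, so leaving out centring moves every gene by the same small amount and could change little. The 2-fold line was crossed by 5 genes under a pseudocount of 10, ANAPC13 (-1.01 to -0.985), ARPC3 (-1.01 to -0.997), SYT3, si:dkey-42i9.4 and DDR1 (1.00 to 0.999), and by 2 without centring, DDR1 (0.992) and mt-atp8 (-0.998 to -1.01). Of 38 list medians 1 moved when genes under 50 were left out. No paired analysis was possible because each condition has 1 library. For the same reason no library could be left out, and clutch, fractionation and library differences cannot be told apart from stage.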

Other observations

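The steps from egg to 1-cell and from 16-cell to 128-cell share no library. Over the 13656 genes their shifts had a Spearman rho of 0.0724, and over the 6537 genes with at least 1000 normalised counts in all 4 fraction libraries of egg and 1-cell it was 0.156. Both are descriptions over genes. Among the 601 assembled loci 44 were gained and 42 lost from egg to 1-cell, beside 4.54% and 4.69% of all members. The part of abundance in these counts was not tested. The assembled locus XLOC_001095 had the largest loss among the abundant genes, with bound counts of 16612 in egg and 4401 at 1-cell and unbound counts of 4549 and 7104, a shift of -2.55 ± 0.04 (counting SE).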
